A study of Mus musculus with 20 samples.

Results

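The subunits of the IL-12 cytokine family were followed in 20 RNA libraries of bone marrow-derived macrophages (BMDMs), which are macrophages grown from mouse bone marrow. The members were taken by gene symbol, Il12a, Il12b, Il23a, Il27 and Ebi3, and all 5 were among the 21963 entries of the count table. The study asked how calcium uptake by mitochondria affects inflammatory gene expression in macrophages. Cells came from young WT mice and from young mice labelled Mcu-/-, in which Mcu, the gene of the pore-forming subunit of the mitochondrial calcium uniporter, was targeted. The study describes the Mcu-/- cells as derived from mice with a floxed Mcu allele and Cre recombinase under the Cx3cr1 promoter, which acts in myeloid cells. The 5 groups were WT untreated (n = 4), WT with zymosan for 3 h (n = 5), WT loaded with BAPTA-AM and given zymosan for 3 h (n = 4), Mcu-/- untreated (n = 4) and Mcu-/- with zymosan for 3 h (n = 3). Zymosan is a yeast cell wall particle that engages Toll-like receptor 2 and dectin-1, and BAPTA-AM is a cell-permeant calcium chelator. The labels name the libraries as biological replicates without tying them to animals, so p-values measure the spread between these libraries.

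The IL-12 family consists of cytokines built from 2 chains, and its members share chains. Il12b encodes p40, which pairs with the Il12a product p35 to form IL-12 and with the Il23a product p19 to form IL-23. Ebi3 pairs with the Il27 product p28 to form IL-27 and with p35 to form IL-35. In macrophages and dendritic cells p40 and p28 are known as chains whose transcription is switched on by microbial products, and secretion of a complete cytokine needs both of its chains. The libraries measured mRNA, so neither chain protein nor assembled cytokine was observed.

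Library totals lay between 14.4 and 24.0 M counts, and 11707 entries passed the filter on low counts, among them Il12b, Il27 and Ebi3. Il12a and Il23a did not pass. Levels are given as normalized counts, which are CPM (read counts scaled to 1 M reads in the TMM-adjusted library) multiplied by the mean library size of 20.6 M. Fold changes, their standard errors and adjusted p-values are from edgeR's quasi-likelihood test with Benjamini-Hochberg adjustment over the entries tested, unless another test is named. Mcu itself was at 134 to 172 normalized counts in untreated WT and 54.2 to 83.4 in untreated Mcu-/- libraries, and with zymosan at 126 to 149 in WT and 74.6 to 82 in Mcu-/- libraries, so its mRNA was lower but present in all libraries labelled Mcu-/-. The macrophage markers Adgre1, Csf1r, Cd68, Mertk, Fcgr1 and Itgam were present in every group, but not at 1 level, and their moves with genotype are given beside the genotype results. Untreated Mcu-/- replicate 4 stood apart from replicates 1 to 3. Leaving it out lowered edgeR's common coefficient of variation between replicates from 12.4% to 3.56%. Where the call, direction or size of a result turned on it, the value without it is given in most cases, and otherwise lies within a range over alternatives.

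The genes lie at separate loci of the mm10 build. Il12b spans chr11:44400063-44414033 on the plus strand, Il27 spans chr7:126589010-126594941 on the minus strand and Ebi3 spans chr17:55952640-55957022 on the plus strand. Il12a spans chr3:68690644-68698547 on the plus strand and Il23a spans chr10:128296139-128298752 on the minus strand. All 5 are annotated as protein-coding. The last exon region of Il27 shares 103 of the gene's 1020 exonic bases with Apobr on the opposite strand, and Ebi3 shares 270 of 1154 exonic bases with the antisense transcript Gm16712. Whether the counting used strand was not given in the sources used here, so reads in these overlaps cannot be assigned to 1 strand.

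The 250 bases before the start of Il12b and of Ebi3 are shown because these genes sat at opposite ends of the family's behaviour, Il12b almost silent before zymosan and Ebi3 abundant throughout. Both come from RefSeq's promoter windows on build GRCm38.p6, which held 3 of the 5 members (Il12a, Il12b and Ebi3), and both are on the plus strand, at chr11:44399813-44400062 for Il12b and chr17:55952373-55952622 for Ebi3. Capitals mark matches on either strand to any of 6 motifs, which were GGG, 5 of any base and CC for NF-kB, TGANTCA for AP-1, GAAA, 2 of any base and GAAA for IRF factors, TTNCNNAA for C/EBP, GAGGAA for PU.1 and GGAAA as the core of NFAT sites.
Il12b: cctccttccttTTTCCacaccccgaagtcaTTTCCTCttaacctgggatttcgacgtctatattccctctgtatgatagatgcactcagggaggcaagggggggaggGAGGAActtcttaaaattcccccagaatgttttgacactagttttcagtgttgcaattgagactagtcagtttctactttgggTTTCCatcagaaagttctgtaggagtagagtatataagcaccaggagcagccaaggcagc
Ebi3: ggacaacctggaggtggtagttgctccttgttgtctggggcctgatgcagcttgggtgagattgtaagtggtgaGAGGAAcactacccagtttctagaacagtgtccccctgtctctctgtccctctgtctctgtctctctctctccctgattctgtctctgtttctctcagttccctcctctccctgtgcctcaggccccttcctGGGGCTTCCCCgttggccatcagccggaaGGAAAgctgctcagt

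The Il12b stretch held the PU.1 letters at 2 places and the NFAT core at 3, of which 1 overlapped a PU.1 match. The Ebi3 stretch held the NF-kB letters in an overlapping run that began 44 bases before the start, the PU.1 letters once and the NFAT core once. Of all 32851 promoter windows, each 300 bases long, 50.8% held the NF-kB letters, 7.81% the AP-1, 3.44% the IRF, 40.7% the C/EBP, 28.3% the PU.1 and 61.3% the NFAT core letters. A match describes letters and not a bound site, and the lack of a match to these fixed strings does not show that a site is absent.

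**Figure D1:**
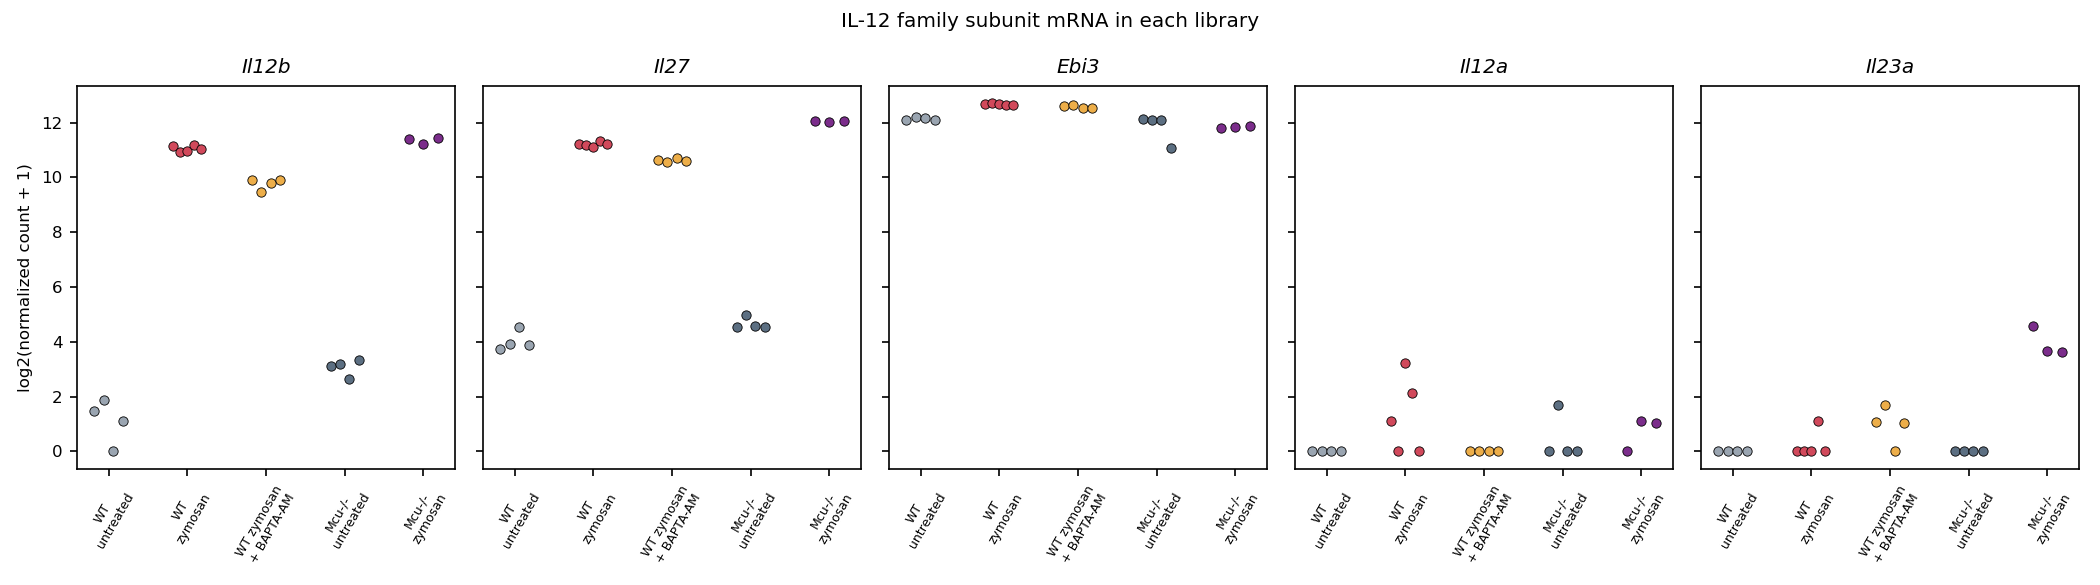
Level of each IL-12 family subunit in the 20 libraries, as log2 of the normalized count plus 1 on the y axis, by group on the x axis; each point is 1 library. Il12b and Il27 rose from near the bottom of the scale with zymosan, and Ebi3 was high in every group. Il12a and Il23a stayed low, highest for Il23a in the 3 Mcu-/- zymosan libraries and for Il12a in WT zymosan replicate 3 (8.41 normalized counts).

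In untreated WT macrophages only Ebi3 was abundant. Ebi3 had 4320, 4675, 4597 and 4355 normalized counts in the 4 libraries (4487 ± 176, SD, n = 4). Il27 had 12.3, 14, 22.1 and 13.9 normalized counts, Il12b had 2, 3, 0 and 1 raw counts, and neither Il12a nor Il23a had a count in any of these libraries. The detection floor used here, 3 counts per library, corresponds to 2.84 normalized counts in this group. Per kilobase of exon, Ebi3 stood at 189 ± 7.39 CPM and Il27 at 0.739 ± 0.209 CPM, so resting cells held mRNA of 1 IL-27 chain 267 ± 56.8 times above the other on this scale.

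Zymosan raised Il12b and Il27 by over 2 orders of magnitude in WT macrophages. Il12b reached 2284, 1960, 1972, 2318 and 2105 normalized counts in the 5 WT zymosan libraries (2128 ± 169, n = 5). Against the 6 counts pooled over the 4 untreated libraries this was a ratio of 1514 (exact 95% interval 695 to 4126, counting error only), and the fitted log2 fold change of 10.45 (SE 0.20, adjusted p = 6.88e-19) depends on the prior count that edgeR adds. Il27 reached 2398, 2299, 2204, 2581 and 2360 normalized counts (2369 ± 140, n = 5). Its log2 fold change was 7.23 (SE 0.11, adjusted p = 3.68e-20), and the ratio of pooled counts was 151 (119 to 195). For both genes the treated and untreated libraries did not overlap. For no comparison was the share of all entries without such overlap worked out. Over all entries tested, 32.4% were called higher and 36.8% lower in this comparison, so a call was common. With library totals in place of TMM scaling, 1834 entries were higher and 8018 lower, and Il12b and Il27 kept their direction and call.

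Ebi3 moved far less. It had 6503, 6651, 6565, 6427 and 6315 normalized counts with zymosan (6492 ± 129, n = 5), all above the untreated libraries, a log2 fold change of 0.53 (SE 0.14, adjusted p = 0.00208). This rise depended on the scaling of libraries. TMM scaling factors were about 1.22 to 1.24 in untreated and 0.865 to 0.881 in zymosan WT libraries, and with library totals in place of TMM the median of all genes moved by -0.492 on the log2 scale and Ebi3 gave 0.04 (adjusted p = 0.80). Relative to that shift of the median Ebi3 was higher, and relative to the library total it was level.

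Il12a and Il23a stayed at the bottom of the range in WT cells. The p35 gene Il12a had 1, 0, 8, 3 and 0 counts with zymosan, so that replicate 3 held 8 of the 12 counts, and an exact two-sided permutation test against the 4 untreated libraries gave p = 0.167. With no filter beyond 1 count edgeR called Il12a higher (4.48, SE 1.69, adjusted p = 0.0396) on these counts. The p19 gene Il23a had 1 count in 1 of the 5 libraries. With zymosan, p40 mRNA therefore stood at 688 times the p35 mRNA per kilobase of exon (exact 95% interval 394 to 1333, counting error only), and at 1660 times (648 to 6095) without replicate 3, a value outside that interval. It stood at 10914 times the p19 mRNA, where the single count leaves an interval of 1958 to 431125.

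The 6 dendritic cell markers, cells that also transcribe these subunits, were read beside the rise. Cd209a had no count in any library, Flt3, Zbtb46, Ccr7 and Clec9a each had a mean of at most 0.355 CPM in every group, and the summed level of the 6 went from 0.81 to 1.27 CPM in untreated WT to 9.15 to 10.1 CPM with zymosan, nearly all of it Xcr1 (0.613 and 9.03 CPM). The part of these cells in the rise was not tested, and in bulk libraries fewer cells of a type and less RNA per cell cannot be told apart.

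**Figure D2:**
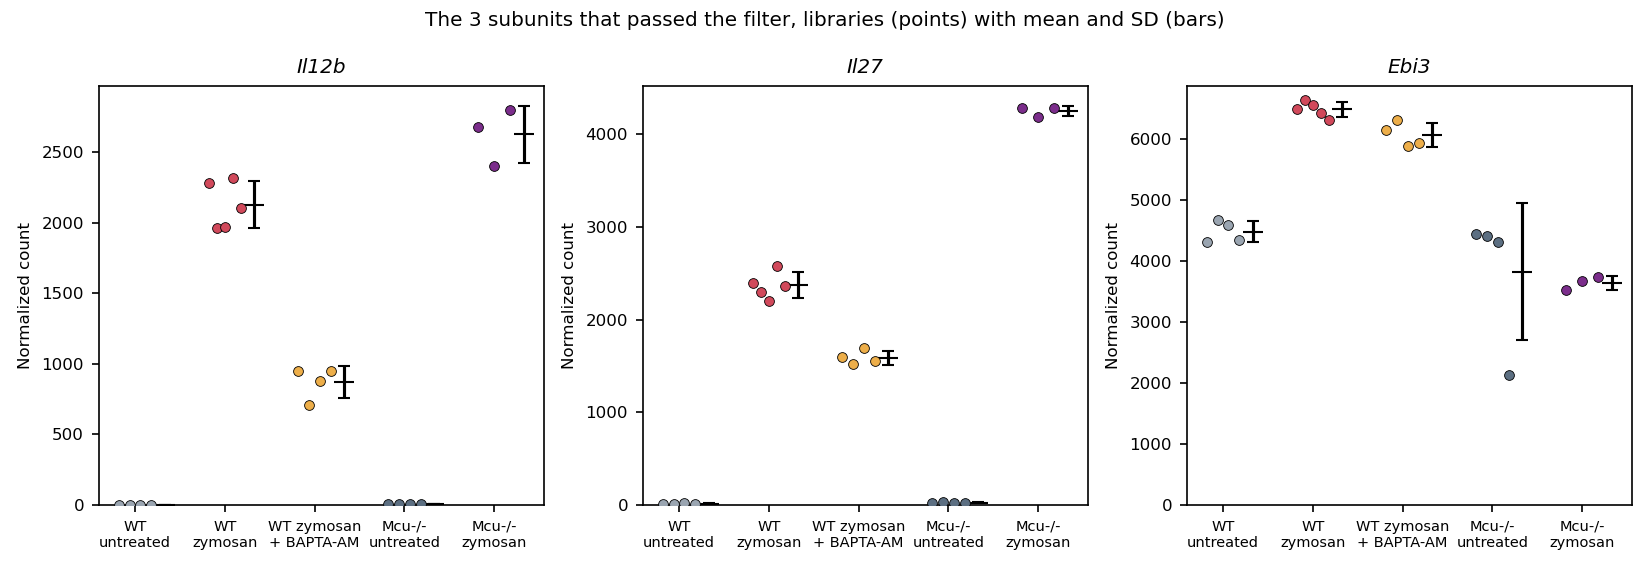
Normalized counts (y axis, linear, from 0) of Il12b, Il27 and Ebi3 by group (x axis), with 1 point per library and the group mean with SD beside it. BAPTA-AM libraries lay below the WT zymosan libraries for Il12b and Il27, and the Mcu-/- zymosan libraries lay highest for both but low for Ebi3, where untreated Mcu-/- replicate 4 was lowest at 2138.

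BAPTA-AM loading lowered Il12b more than Il27 and left Ebi3 nearly level. Il12b had 952, 711, 878 and 949 normalized counts with BAPTA-AM and zymosan (872 ± 113, n = 4), and Il27 had 1602, 1517, 1690 and 1552 (1590 ± 75.1, n = 4). Neither gene's libraries overlapped those with zymosan alone. The log2 fold changes against zymosan alone were -1.29 for Il12b (SE 0.09, adjusted p = 5.14e-08) and -0.57 for Il27 (SE 0.07, adjusted p = 1.22e-05). In this comparison 6.43% of entries tested were called higher and 6.33% lower (753 and 741, against 1566 and 525 with library totals). Measured as a share of the WT rise over untreated cells, 41.0% ± 5.31 of the Il12b rise and 66.9% ± 3.19 of the Il27 rise remained with BAPTA-AM (SD, n = 4), and the lowest Il27 library (63.8%) was above the highest Il12b library (44.7%). 

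Ebi3 had 6149, 6319, 5892 and 5936 normalized counts with BAPTA-AM (6074 ± 198, n = 4), and the highest of these overlapped the zymosan libraries. Its log2 fold change was -0.10 (SE 0.14, adjusted p = 0.75). When untreated Mcu-/- replicate 4, which is outside this comparison but shares its estimate of spread, was left out, the same -0.10 had a SE of 0.03 and an adjusted p of 0.0103, with 15.3% of entries called higher and 16.5% lower. Fitting the 2 groups alone gave -0.09 (adjusted p = 0.0153). Il12a had no count in any of the 4 BAPTA-AM libraries, and Il23a had 1, 2, 0 and 1 counts, within the floor.

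Even with BAPTA-AM the induced chains stayed far above untreated cells. Against WT untreated, Il12b had a log2 fold change of 9.16 (SE 0.21, adjusted p = 1.28e-17) and Il27 of 6.66 (SE 0.11, adjusted p = 1.52e-19), in a comparison where 31.9% of entries were called higher and 34.2% lower (3732 and 3998, against 1854 and 7484 with library totals). Ebi3 was at 0.44 (SE 0.14, adjusted p = 0.0124), and at 0.01 (adjusted p = 0.97) with library totals, which shifted the median of all genes by -0.431. Il23a, with 4 counts pooled over the BAPTA-AM libraries and none in untreated WT, was called in edgeR with no filter beyond 1 count (3.34, SE 1.27, adjusted p = 0.0444). These counts lie within the floor, the libraries of the groups overlapped, and the exact two-sided permutation p was 0.143.

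**Figure D3:**
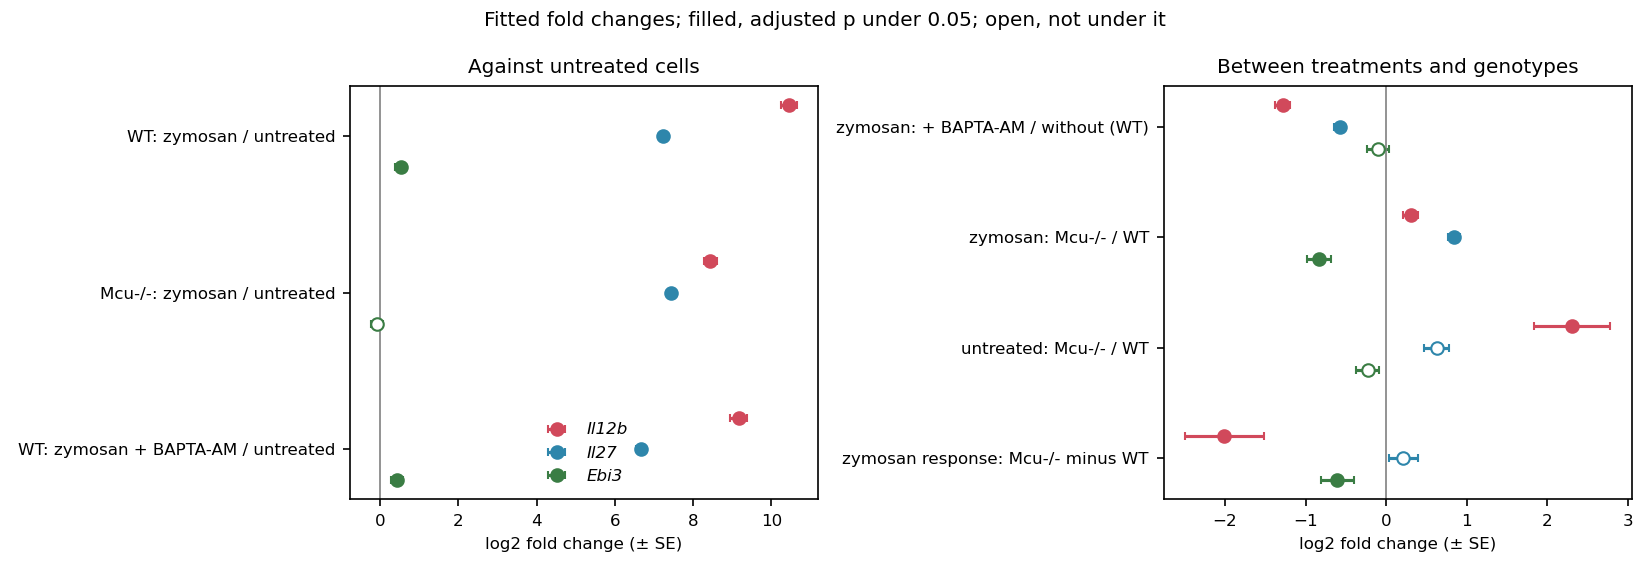
Log2 fold changes (x axis, bars are SE) of the 3 subunits that passed the filter, in each comparison (y axis); filled points had an edgeR adjusted p under 0.05. The left panel compares with untreated cells and the right panel compares treatments and genotypes, where Il27 and Ebi3 lay on opposite sides of 0 between the genotypes with zymosan.

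In zymosan-treated Mcu-/- macrophages Il27 was higher and Ebi3 lower than in WT, so the chains of IL-27 moved in opposite directions. Il27 had 4280, 4184 and 4285 normalized counts in the 3 Mcu-/- libraries (4250 ± 56.6, n = 3), every one above the highest WT library, and a log2 fold change of 0.84 (SE 0.07, adjusted p = 2.01e-08). Ebi3 had 3524, 3672 and 3740 (3645 ± 111, n = 3), every one below the lowest WT library, and a log2 fold change of -0.83 (SE 0.15, adjusted p = 0.000156). Il12b had 2676, 2405 and 2797 (2626 ± 201, n = 3), above all 5 WT libraries by a smaller step, with a log2 fold change of 0.30 (SE 0.10, adjusted p = 0.0105). Without Mcu-/- replicate 5, the highest for this gene, Il12b was at 0.26 and an adjusted p of 0.0636. With library totals all 3 genes kept their direction and call. Between these genotypes 31.8% of all entries were called higher and 30.3% lower, so calls in both directions were common.

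Il23a was detected in these libraries only at a low level. It had 19, 10 and 11 counts in the 3 Mcu-/- zymosan libraries (15.3 ± 6.70 normalized counts, n = 3), against 1 count in total in the 5 WT zymosan libraries and none in the 4 untreated Mcu-/- libraries. The groups with zymosan did not overlap, and the exact two-sided permutation p was 0.0179, the smallest that 3 against 5 libraries can give. The pooled ratio to WT was 67.8 (exact 95% interval 11.5 to 2742, counting error only). Since Il23a failed the filter it has no place in the main fit, and with no filter beyond 1 count edgeR gave 5.46 (SE 0.76, adjusted p = 4.29e-05). Against untreated Mcu-/- libraries, taken at the floor of 3 counts each, Il23a was at least 6.56-fold higher. Even here p40 mRNA stood at 200 times the p19 mRNA per kilobase of exon (147 to 280). Il12a had 0, 1 and 1 counts, within the floor, and its exact permutation p against WT with zymosan was 0.518.

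Within libraries the ratio of the IL-27 chains separated the groups. Per kilobase of exon, Ebi3 exceeded Il27 by 2.43 ± 0.170 times in WT zymosan libraries (range 2.20 to 2.64, n = 5) and by 3.39 ± 0.246 times with BAPTA-AM (3.08 to 3.69, n = 4), while in Mcu-/- zymosan libraries the ratio was 0.759 ± 0.0266 (0.728 to 0.776, n = 3). Il27 was thus the more abundant chain transcript only in the Mcu-/- zymosan libraries. On the log2 scale, with 0.5 added to each count, the ratio was 0.48 higher with BAPTA-AM than with zymosan alone (exact two-sided permutation p = 0.00794, adjusted p = 0.0357) and 1.68 lower in Mcu-/- than in WT (exact p = 0.0179, adjusted p = 0.0357). Adjustment was over the 8 ratios computed, and each raw p is the smallest its group sizes allow. The other ratios involve Il12a or Il23a, which were at or under the floor of 3 counts in most libraries, and are descriptions. Such a ratio within a library shows unequal change and does not depend on library scaling.

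**Figure D4:**
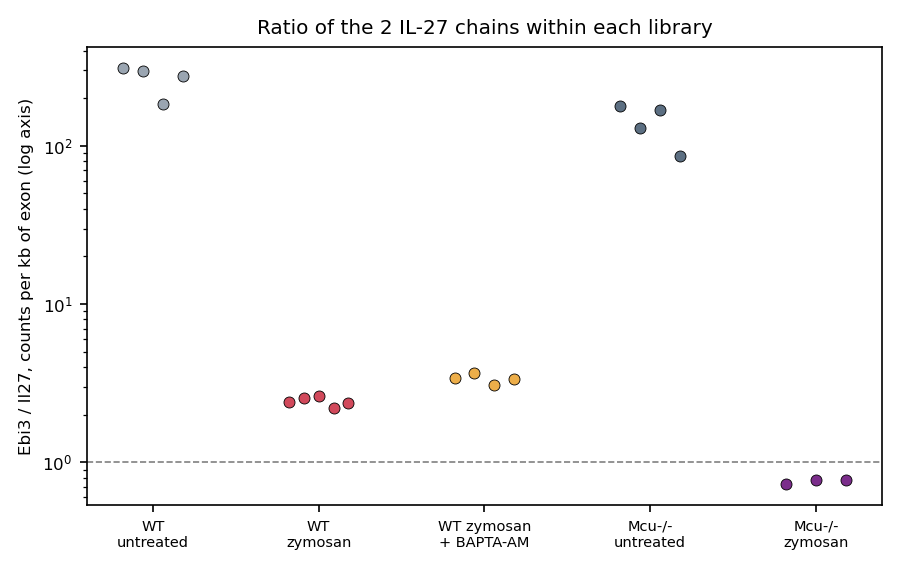
Ratio of Ebi3 to Il27 counts per kilobase of exon in each library (y axis, log scale) by group (x axis); the dashed line marks equal levels. The 3 Mcu-/- zymosan libraries lay below the line at 0.728 to 0.776, and all other libraries lay above it.

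Values that moved with the genotype difference are given beside it. Apobr, which overlaps the end of Il27, had a log2 fold change of 0.82 (SE 0.08, adjusted p = 2.46e-07) between the genotypes with zymosan and of -0.48 (SE 0.08, adjusted p = 0.000386) with BAPTA-AM, near the values of Il27. In untreated WT libraries Apobr stood at 1762 ± 108 normalized counts while Il27 stood at 15.6 ± 4.40 (n = 4 for both). The macrophage markers moved both ways between the same groups. From WT to Mcu-/- with zymosan, Cd68 went from 309 to 1158 CPM (1.91, SE 0.31, adjusted p = 4.34e-05), Fcgr1 from 212 to 573 CPM (1.44, SE 0.34, adjusted p = 0.0014) and Csf1r from 562 to 1080 CPM (0.94, SE 0.10, adjusted p = 4.41e-07). Itgam went from 869 to 275 CPM (-1.66, SE 0.24, adjusted p = 1.66e-05) and Adgre1 from 4920 to 2840 CPM (-0.79, SE 0.12, adjusted p = 2.96e-05), while Mertk, at 60.6 and 76 CPM, was not called (0.33, SE 0.18, adjusted p = 0.113). The summed level of the 3 stromal markers Col1a1, Col1a2 and Col3a1 was 43.7 to 52.0 CPM in Mcu-/- and 4.44 to 6.32 CPM in WT zymosan libraries, and that of the 6 neutrophil markers was 0.396 to 0.589 and 2.85 to 4.84 CPM. Of the untreated Mcu-/- libraries only replicate 4 went the same way, at 28.2 CPM (stromal) and 0.159 CPM (neutrophil). Replicates 1 to 3 were at 1.02 to 2.70 and 1.66 to 2.49 CPM. Ebi3 was also low in replicate 4, at 2138 normalized counts, while Il27 was at 22.1, near the 22.1 to 30.1 of replicates 1 to 3. The 3 T cell, 3 NK cell, 3 mast cell and basophil, and 3 erythroid markers summed to at most 0.657 CPM in any library, and the 3 B cell markers to 0.924 to 2.57 CPM. The part of other cells, and of what moved these macrophage markers, in the differences was not tested. Nor was the part of a difference between cultures that the Mcu-/- zymosan libraries share with untreated replicate 4.

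Before stimulation, Il12b was also detected in Mcu-/- macrophages. The 4 untreated Mcu-/- libraries had 10, 11, 7 and 11 raw Il12b counts, against 2, 3, 0 and 1 in WT, and the groups did not overlap. The pooled ratio was 5.32 (exact 95% interval 2.24 to 15.4, counting error only), the log2 fold change was 2.31 (SE 0.47, adjusted p = 0.0342), and the exact permutation p was 0.0286, the smallest for 4 against 4. Only 0.128% of entries were called higher and 0.222% lower in this comparison. Il12b entered this fit because the zymosan libraries carried it past the filter on low counts, and in a fit of the 2 untreated groups alone it did not pass that filter and was not tested. The call rested on few counts and was lost, at a log2 fold change of 1.90 to 2.44 and an adjusted p of 0.0566 to 0.112, on leaving out WT replicate 1, 3 or 4 or Mcu-/- replicate 1, 2 or 4. Without Mcu-/- replicate 4, 1.53% of entries were called higher and 1.83% lower, and Il12b was at 2.22 (adjusted p = 0.0888).

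Untreated Il27 and Ebi3 did not pass the test between genotypes. Il27 had 22.1, 30.1, 22.6 and 22.1 normalized counts in Mcu-/- libraries (24.2 ± 3.9, n = 4), barely clear of the WT libraries, with a log2 fold change of 0.63 (SE 0.16, adjusted p = 0.176) and an exact permutation p of 0.0286. Ebi3 had 4442, 4420, 4317 and 2138 (3829 ± 1129, n = 4) and a log2 fold change of -0.23 (SE 0.14, adjusted p = 0.432), or -0.03 (SE 0.03, adjusted p = 0.755) without replicate 4. Replicates 1 to 3 averaged 4393 ± 66.8, inside the WT range, and replicate 4 lay below every other library of the series. In replicate 4 Il12b and Il27 were at 9 and 22.1 normalized counts, the stromal markers summed to 28.2 CPM against 1.02 to 2.70 CPM in replicates 1 to 3, and the neutrophil markers to 0.159 against 1.66 to 2.49 CPM.

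The zymosan response of Mcu-/- macrophages was large for Il12b and Il27. Their log2 fold changes over untreated Mcu-/- libraries were 8.44 (SE 0.16, adjusted p = 8.83e-19) and 7.44 (SE 0.10, adjusted p = 1.35e-20), in a comparison with 34.3% of entries called higher and 39.4% lower (4017 and 4618, against 1878 and 7999 with library totals). In linear terms the Il12b rise was 123% ± 9.43 and the Il27 rise 180% ± 2.41 of the mean WT rise (n = 3). On the log2 scale the Il12b response was 2.01 smaller than in WT (SE 0.49, adjusted p = 0.00445; 1.91 smaller, adjusted p = 0.025, without untreated Mcu-/- replicate 4), while the level after zymosan was higher in Mcu-/-, and the untreated libraries held 39 pooled counts in Mcu-/- and 6 in WT. The Il12b term thus rests on the same few untreated counts as the genotype call before zymosan. The Il27 response differed by 0.21 (SE 0.18, adjusted p = 0.463). Over all entries 15.2% had a called difference of responses that was positive and 20% one that was negative. Without untreated Mcu-/- replicate 4 these were 31% and 29.3%.

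The Ebi3 value of Mcu-/- macrophages after zymosan was not called against untreated cells, and this turned on 1 untreated library. With all 4 untreated libraries the log2 fold change was -0.07 (SE 0.16, adjusted p = 0.689). All 3 zymosan libraries lay below untreated replicates 1 to 3, with a mean 0.83 times theirs, and all 3 lay above replicate 4, at 1.70 times its value. Without replicate 4 the log2 fold change was -0.27 (adjusted p = 2.3e-08), with 39.2% of entries called higher and 42.4% lower, and with library totals and all libraries it was -0.60 (adjusted p = 0.00306), where the median of all genes shifted by -0.521. The response of Ebi3 was 0.60 smaller than in WT (SE 0.21, adjusted p = 0.0317), and over the alternatives it ranged from -0.80 to -0.53 with the adjusted p between 1.16e-17 and 0.0794.

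Ordered by level, Il12b and Il27 had the same sequence of groups, from Mcu-/- with zymosan through WT with zymosan, WT with BAPTA-AM and zymosan and untreated Mcu-/- to untreated WT, and no 2 neighbours overlapped. How common such separation was over all entries was not worked out. For Il27 the 2 untreated groups met at 22.1 normalized counts to the digits given, and edgeR did not call them different (adjusted p = 0.176). Ebi3 ran from WT with zymosan through WT with BAPTA-AM and zymosan, untreated WT and untreated Mcu-/- to Mcu-/- with zymosan. The pair of WT zymosan groups overlapped, as did untreated WT and untreated Mcu-/-, and the last pair. Per kilobase of exon the most abundant family transcript in Mcu-/- zymosan libraries was Il27 (202 ± 2.69 CPM), followed by Ebi3 (153 ± 4.65 CPM) and Il12b (64.8 ± 4.95 CPM, n = 3), whereas in WT with zymosan it was Ebi3 (273 ± 5.41 CPM), followed by Il27 (113 ± 6.63 CPM) and Il12b (52.5 ± 4.15 CPM, n = 5).

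The genes whose pattern was most like a subunit's were ranked by Pearson's r of log2(CPM + 1) among 10576 other genes, as a description over libraries that share groups and depth. Over all 20 libraries Il12b was most like Malt1, Notch2 and Nt5c3 (r = 0.997 for each), Il27 was most like Il6 (0.999), Tnfaip2 and Marcksl1 (0.998 for both), and Ebi3 was most like Elmo1 (0.988), Acot7 and Gas7 (0.987 for both). Il12b and Il27 had r = 0.996 with each other, and Ebi3 had 0.453 with Il12b and 0.439 with Il27. Over the 12 zymosan-stimulated libraries Il12b was most like Atp6v1e1 (0.993), Nt5c3 (0.989) and Ccl9 (0.986), Il27 was most like Ikzf1, Ifi204 (0.997 for both) and Mitf (0.995), and Ebi3 was most like Siglece (0.998), Limd2 and Myo1g (0.997 for both). In these libraries Il27 had r = 0.873 with Il12b and -0.823 with Ebi3, and Il12b had -0.461 with Ebi3. Among the 10576 genes Il12b ranked 1196 in likeness to Il27, and Il27 ranked 270 in likeness to Il12b.

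**Figure D5:**
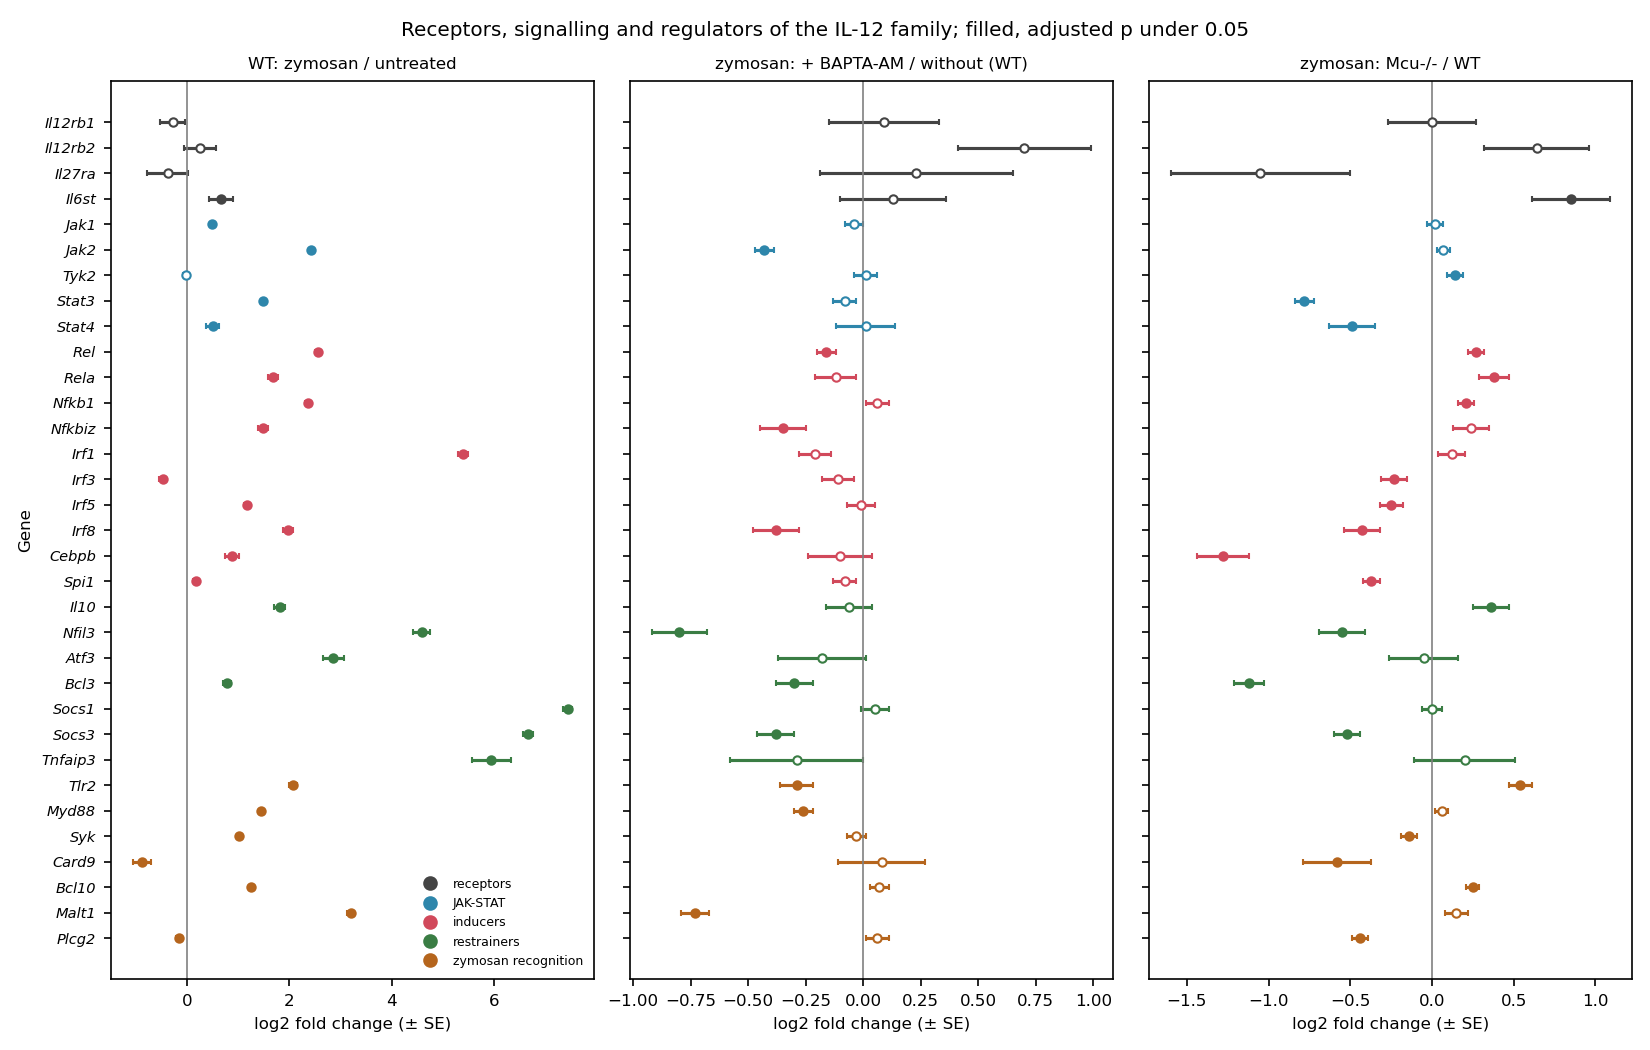
Log2 fold changes (x axis, bars are SE) of the receptor, JAK-STAT, inducer, restrainer and zymosan recognition genes (y axis, coloured by list) in 3 comparisons; filled points had an edgeR adjusted p under 0.05, and the x scales differ between panels. The regulators rose widely with zymosan in WT, and between the genotypes calls went both ways, as they did over all entries.

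The receptor genes of the family were low in these macrophages except Il6st, which encodes gp130, a chain of the IL-27 receptor. The list counts from here on stand beside the shares over all entries. With zymosan in WT 32.4% were called higher and 36.8% lower, and with BAPTA-AM 6.43% and 6.33%. Without untreated Mcu-/- replicate 4 the BAPTA-AM shares were 15.3% and 16.5%. Between the genotypes with zymosan 31.8% were higher and 30.3% lower (3720 and 3552 of 11707). Without untreated Mcu-/- replicate 4 these were 4249 and 3933 of 11666. Of 5 receptor genes 4 were tested, 1 was higher with zymosan in WT and none lower (median log2 fold change -0.02, against -0.04 over all genes tested). Il6st rose from 339 ± 17.4 to 535 ± 22.8 normalized counts (log2 fold change 0.66, SE 0.23, adjusted p = 0.0176, and 0.17 with an adjusted p of 0.478 with library totals) and was higher again in Mcu-/- with zymosan at 966 ± 49.2 (0.85, SE 0.24, adjusted p = 0.00507), where 1 of 4 was higher and none lower (median 0.32, all genes 0.02). None of the 4 was called with BAPTA-AM (median 0.18, all genes 0.00). Without untreated Mcu-/- replicate 4, Il6st was called higher with BAPTA-AM (0.13, adjusted p = 0.0468) and Il27ra lower in Mcu-/- with zymosan (-1.04, adjusted p = 0.0468). In the untreated Mcu-/- libraries Il6st ran from 362 to 1060 normalized counts. Its difference of responses between the genotypes was 0.16 (adjusted p = 0.742), and 0.70 (adjusted p = 1.99e-09) without replicate 4. Il12rb1, shared by the IL-12 and IL-23 receptors, had 17 to 65 raw counts in every library, Il12rb2 9 to 34, Il27ra 2 to 28 and Il23r at most 5.

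Among the JAK-STAT genes analysed, which carry the signal of these receptors, 4 of 5 were higher with zymosan in WT and none lower (median 0.50), and 2 were higher and 1 lower with library totals, where Jak1 went from 0.49 to -0.01 and Stat4 from 0.50 to 0.01. Jak2 rose from 1441 ± 42.4 to 7741 ± 330 normalized counts (2.42, SE 0.04, adjusted p = 1.11e-19) and Stat3 from 3367 ± 137 to 9441 ± 260 (1.49, SE 0.05, adjusted p = 7.7e-15). With BAPTA-AM 1 of 5 was lower and none higher (median -0.04, and 2 of 5 lower without untreated Mcu-/- replicate 4), which was Jak2 (-0.43, SE 0.04, adjusted p = 3.79e-07). Between the genotypes with zymosan 1 was higher and 2 lower (median 0.02), beside 31.8% and 30.3% of all entries, with Stat3 at -0.78 (SE 0.06, adjusted p = 4.12e-09) and Stat4 at -0.49 (SE 0.14, adjusted p = 0.00648) in Mcu-/-. The higher one, Tyk2, was at 0.14 (adjusted p = 0.0312), and at 0.09 (adjusted p = 0.236) with library totals.

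The inducer list holds transcription factors known to act on Il12b or Il27, and 9 of 10 were higher and 1 lower with zymosan in WT (median 1.58), and 8 and 2 with library totals, where Spi1, the gene of PU.1, went from 0.17 to -0.32. Irf1 rose by 5.39 (SE 0.09, adjusted p = 1.57e-19) and Rel, the NF-kB subunit c-Rel, by 2.55 (SE 0.05, adjusted p = 3.03e-19). With BAPTA-AM 3 of 10 were lower and none higher (median -0.11), among them Irf8 (-0.38, SE 0.10, adjusted p = 0.0145) and Nfkbiz (-0.35, SE 0.10, adjusted p = 0.0258). Without untreated Mcu-/- replicate 4 this count was 7 of 10 lower, and with library totals 1 of 10, at -0.29 for Nfkbiz (adjusted p = 0.0784). In Mcu-/- with zymosan 3 were higher and 5 lower than in WT (median -0.06), beside 31.8% and 30.3% of all entries. Without untreated Mcu-/- replicate 4 it was 5 and 5, where Nfkbiz and Irf1 were added, beside 4249 and 3933 of 11666 entries. The largest fall was in Cebpb, from 5203 ± 94.8 to 2141 ± 65.9 normalized counts (-1.28, SE 0.16, adjusted p = 3.8e-06), followed by Irf8 (-0.43, SE 0.11, adjusted p = 0.00206). The 3 higher ones were the NF-kB subunit genes Rel (0.27, adjusted p = 7.57e-05), Rela (0.38, adjusted p = 0.00206) and Nfkb1 (0.21, adjusted p = 0.00146).

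The restrainers, genes known to limit expression or signalling of the family, were all 7 higher with zymosan in WT (median 4.58), also with library totals. Socs1 rose by 7.43 (SE 0.09, adjusted p = 1.85e-21) and Socs3 by 6.66 (SE 0.10, adjusted p = 4.78e-20). With BAPTA-AM 3 of 7 were lower and none higher (median -0.29, 5 of 7 lower without untreated Mcu-/- replicate 4 and 2 of 7 with library totals), with Nfil3 at -0.80 (SE 0.12, adjusted p = 0.000262) and Socs3 at -0.38 (SE 0.08, adjusted p = 0.00201). In Mcu-/- with zymosan 1 was higher and 3 lower (median -0.05), beside 31.8% and 30.3% of all entries. Without untreated Mcu-/- replicate 4 it was 2 and 3, where Tnfaip3 was added, beside 4249 and 3933 of 11666 entries. Bcl3 was at -1.12 (SE 0.09, adjusted p = 1.55e-08) and Nfil3 at -0.55 (SE 0.14, adjusted p = 0.00186). The higher one with all libraries was Il10 (0.36, SE 0.11, adjusted p = 0.00906).

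Of the 8 zymosan recognition genes 7 were tested and Clec7a was not analysed here. With zymosan in WT 5 were higher and 2 lower (median 1.26), led by Malt1 (3.20, SE 0.07, adjusted p = 4.76e-18) and Tlr2 (2.07, SE 0.07, adjusted p = 7.83e-15). With BAPTA-AM 3 of 7 were lower and none higher (median -0.03), with Malt1 at -0.73 (SE 0.06, adjusted p = 2.86e-07) and Tlr2 at -0.29 (SE 0.07, adjusted p = 0.0103). With library totals 2 were lower and 1 higher, and Tlr2 was at -0.22 (adjusted p = 0.0621). In Mcu-/- with zymosan 2 were higher and 3 lower (median 0.06), beside 31.8% and 30.3% of all entries. Without untreated Mcu-/- replicate 4 it was 3 and 3, where Malt1 was added, beside 4249 and 3933 of 11666 entries. Tlr2 was at 0.54 (SE 0.07, adjusted p = 1.05e-05) and Card9 at -0.58 (SE 0.21, adjusted p = 0.0223). Card9 had 308 to 830 normalized counts in the untreated Mcu-/- libraries and 311 to 331 in those with zymosan. Tlr2 had 1759 to 2423 and 15442 to 16077. Between the untreated genotypes none of the 33 genes tested in the 5 lists was called in edgeR's fit of all libraries. Over all entries 0.128% were called higher and 0.222% lower in that fit. Without untreated Mcu-/- replicate 4, of the 33 genes 1 was called higher and 4 lower, beside 1.53% and 1.83% of all entries.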

How the data were processed

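RNA was sequenced in 20 libraries. The authors deposited 1 table of raw counts per gene, for which cutadapt trimmed adaptors from read pairs, STAR aligned them to mm10 and HTSeq counted them; strand setting and annotation release were not given in the sources used here. Columns were matched to samples by name, and 0 columns were left out. Columns of the 3 Mcu-/- zymosan libraries are numbered 3, 4 and 5 and those numbers name the libraries here.

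Counts were fitted in R 4.3.3 with edgeR 4.0.16 (filterByExpr, TMM, quasi-likelihood test, 1 coefficient per group, all 20 libraries), with Benjamini-Hochberg adjustment over all 11707 entries and calls at 0.05. The fit was also run on simulated counts in which every gene had the same spread and no library stood apart. That run does not bear on changes in genes with few counts or on the effect of untreated Mcu-/- replicate 4. Pathway genes named in the text were, per list and comparison, up to 2 called genes with the largest fold change whose libraries did not overlap and whose higher group averaged 1 CPM or more. Further genes were named where a call moved between settings or went against the direction of those 2. Genes most like a subunit were its 3 highest correlations. A gene of the JAK-STAT list is not reported here. Exon lengths came from GENCODE M21 and promoters from RefSeq. The members, lists and tests were chosen with earlier results of these data known. The alternatives were the size factors and Wald test of DESeq2 1.42.0, other filters, groups compared alone, the replicate number as a block, another offset and leaving out each library; library totals were added after seeing the data, as were the list counts without untreated Mcu-/- replicate 4 and the Il12b to Il12a ratio without WT zymosan replicate 3. Intervals and floors cover counting error only. At 14.4 to 24.0 M counts per library, the floor of 3 counts limits what can be seen of Il12a and Il23a. The replicate numbers were not taken to pair libraries, except in the block alternative.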

Additional observations from a re-analysis of the deposited data

Results flagged for a closer look

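Of 14 groups of 4 or 5 libraries in which a subunit had counts in at least 2 libraries, 2 held a library that stood apart by Dixon's test, and chance flags about 1 group in 20. Ebi3 was at 2138 normalized counts in untreated Mcu-/- replicate 4, and Il27 was at 30.1 in untreated Mcu-/- replicate 2. In untreated Mcu-/- replicate 2 Il12a was at 2.20 and in WT zymosan replicate 4 Il23a was at 1.13, both from at most 3 counts in groups otherwise at 0, where the test's ratio is 1 by construction and says nothing. The zymosan response on the log2 scale was smaller in Mcu-/- than in WT by an interaction term for Il12b (-2.01, edgeR adjusted p = 0.00445) and for Ebi3 (-0.60, adjusted p = 0.0317). The Il12b term rests on untreated libraries with 0 to 3 raw counts in WT and 7 to 11 in Mcu-/-. Only the zymosan libraries carried Il12b past the filter, and in linear terms its rise in Mcu-/- was 123% of the WT rise.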

How the results depend on the processing

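Of 353 alternative values for the log2 fold changes of single subunits, 326 kept their direction and side of the threshold, 19 lost a call, 4 gained one and 4 changed sign. The sign changes were in values near 0 that had no call. Ebi3 in Mcu-/- with zymosan against untreated was 0.01 with the replicate block and ran from -0.27 to 0.01 on leaving out each library, at or just above 0 without untreated Mcu-/- replicate 1 or 2, and the Il27 difference of responses ran from -0.01, without untreated WT replicate 3, to 0.34. The number of subunits called between untreated genotypes was 0 with the 2 groups fitted alone, where Il12b did not pass the filter and was not tested, and 0 to 1 on leaving out each library. For the difference of responses it was 1 with the replicate block, 1 with the groups fitted alone, and 1 to 2 on leaving out each library, the lost call each time being Ebi3. The block changed no other count. Deviations of same-numbered libraries from their group means correlated at -0.0549 to 0.0614. The numbers were therefore not taken as pairs, though with so few libraries this does not show that a pairing was absent. The log2 difference of the Il12b to Il23a ratio between genotypes was -3.31 with 1 count added to each chain. On leaving out each library, the Ebi3 to Il27 difference ran from 0.44 to 0.52 with BAPTA-AM and from -1.71 to -1.65 in Mcu-/-, with adjusted p at most 0.0571 and 0.0952, since fewer libraries allow no smaller permutation p. Depth limits Il12a and Il23a, at or near the floor of 3 counts in most libraries.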
